A study of Mus musculus with 33 samples.

Results

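The LADs found only in heart are the stretches of the mouse autosomes that were listed as lamina-associated domains (LADs) in the E11.5 heart and as something else in both mouse embryonic stem (mES) cells and the E11.5 forebrain. A bin of 10 kb was a member when it lay in the heart LAD list, in the KOD or open list of mES cells, and in the KOD or open list of forebrain. Adjacent member bins were joined into regions. There were 3729 such bins (37.29 Mb) in 768 regions, out of 96299 LAD bins (962.99 Mb, 3522 domains) in heart and 240077 bins (2400.77 Mb) on chromosomes 1 to 19. The members were chosen by the measured domain lists themselves, so the counts of members and their states in the 3 sources are descriptions and carry no test.

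The series holds 33 CUT&RUN libraries, a method that cuts and releases the DNA lying under an antibody in unfixed cells, made against H3K9me2, Lamin B1 or, as control, IgG. All material was wildtype C57BL/6. The mES cells were a line from a repository, grown in medium with LIF and 2 inhibitors (2i) after a start on inactivated feeder fibroblasts, and gave 3 H3K9me2, 3 Lamin B1 and 3 IgG libraries from separate vessels. Whole hearts and right lobes of the forebrain were taken from embryos of stage E11.5 and pooled by tissue, with different litters for each replicate, and each tissue gave 3 H3K9me2, 3 Lamin B1 and 6 IgG libraries. Whole tissues hold several cell types, so a domain that is at the lamina in a part of the cells and one that is there in all cells cannot be told apart.

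There are 9 lists, which give the LAD, KOD and open domains of each source, with the replicates of that source merged and no score. They give no spread between replicates and no depth, and no test between sources was possible.

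LADs are extended parts of the genome held at the nuclear lamina, the protein meshwork under the inner nuclear membrane. They are usually poor in genes and low in transcription, and H3K9me2, a histone mark of repressed chromatin, is common in them. KOD is the depositors' name, which the labels do not spell out. In this field it stands for a domain that carries H3K9me2 without contact to the lamina, and open stands for the domains with neither. A region of the set therefore carried the LAD label in heart and either the KOD or the open label elsewhere. Transcription was not measured, so nothing here says whether a gene was active.

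Start sites inside the regions ranged from rich to nearly free of CG pairs. The 4 stretches printed here show that range. Each is the 250 bases before an annotated start, 5′ to 3′ in the direction of the gene, with every CG in capitals (RefSeq, GRCm38.p6, the assembly behind mm10). They were chosen after their values were seen, among the named genes whose upstream bases lie outside the gene's own annotated body. Tcerg1l (chr7:138397731-138397980, minus strand) lies in the longest region, which was KOD in mES cells and in forebrain. Slc34a2 (chr5:53049103-53049352, plus strand) was KOD in mES cells and open in forebrain. Psg17 (chr7:18821592-18821841, minus strand) and Cyp2a5 (chr7:26835089-26835338, plus strand) were open in both.
Tcerg1l: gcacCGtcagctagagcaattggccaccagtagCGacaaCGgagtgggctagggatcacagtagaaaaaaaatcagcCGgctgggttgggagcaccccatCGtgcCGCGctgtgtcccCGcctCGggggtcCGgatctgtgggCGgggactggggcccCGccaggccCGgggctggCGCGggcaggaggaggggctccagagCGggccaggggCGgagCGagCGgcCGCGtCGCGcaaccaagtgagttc
Slc34a2: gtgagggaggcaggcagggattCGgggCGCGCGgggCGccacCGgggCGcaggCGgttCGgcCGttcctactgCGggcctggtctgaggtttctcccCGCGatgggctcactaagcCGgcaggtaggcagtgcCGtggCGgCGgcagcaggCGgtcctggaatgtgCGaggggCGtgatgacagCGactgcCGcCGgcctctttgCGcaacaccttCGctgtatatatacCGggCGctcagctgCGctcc
Psg17: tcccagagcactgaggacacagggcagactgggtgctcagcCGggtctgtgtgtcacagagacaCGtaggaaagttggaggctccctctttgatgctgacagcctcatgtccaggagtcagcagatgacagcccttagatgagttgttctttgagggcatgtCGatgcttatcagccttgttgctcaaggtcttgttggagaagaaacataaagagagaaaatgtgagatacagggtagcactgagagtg
Cyp2a5: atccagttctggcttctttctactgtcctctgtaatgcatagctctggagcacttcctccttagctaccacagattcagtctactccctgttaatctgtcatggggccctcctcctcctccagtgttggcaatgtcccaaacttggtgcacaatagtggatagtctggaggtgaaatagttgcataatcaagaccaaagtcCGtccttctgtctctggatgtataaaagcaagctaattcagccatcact

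The first 2 of these stretches hold 23 and 28 CG pairs, and the other two hold 3 and 1. The Cyp2a5 stretch also holds TATAAA, the core of the TATA box. Over 145 annotated start windows of 300 bases (250 before to 50 after the start, 133 genes) that began in member bins, the median number of CG pairs was 4, with quartiles of 2 and 9. The same median was 2 over 1913 windows that were LAD in all 3 sources, 6 over 1113 windows that were KOD in all 3, 19 over 8972 windows that were open in all 3 and 14 over all 20084 windows. Windows with at least 10 CG pairs made up 23.4% in the members, 10.9% in LADs of all 3 sources, 34.1% in KODs of all 3 and 74.4% in bins open in all 3. The share of windows with TATAAA on either strand of the 250 bases was 13.8% in the members, against 32.2%, 15.1% and 6.39% in those same classes and 11.7% over all windows. In CG pairs the start sites of the set thus lay between LADs and KODs of all 3 sources. In TATAAA they lay between the KODs and all windows. Some of the 145 windows belong to neighbouring copies of a gene family, and their weight in these values was not tested. The table of start windows held 128 of the 156 genes that the regions contain and 16456 of 20661 protein-coding genes.

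KOD in both other sources was the most frequent state of the set. By bins, 1870 (50.1%, 18.7 Mb) were KOD in mES cells and in forebrain, 1043 (28.0%, 10.43 Mb) were KOD in mES cells but open in forebrain, 613 (16.4%, 6.13 Mb) were open in both, and 203 (5.44%, 2.03 Mb) were open in mES cells and KOD in forebrain. In all, 78.1% of the member bins were KOD in mES cells and 55.6% were KOD in forebrain. Over all KOD and open bins of these sources the KOD share was 35.6% in each. The members were thus KOD more often than KOD and open bins in general in both sources, and by the larger margin in mES cells. Of the 768 regions, 256 were wholly KOD in both and 156 were wholly open in both. The longest of the wholly open regions measured 170 kb.

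**Figure D1:**
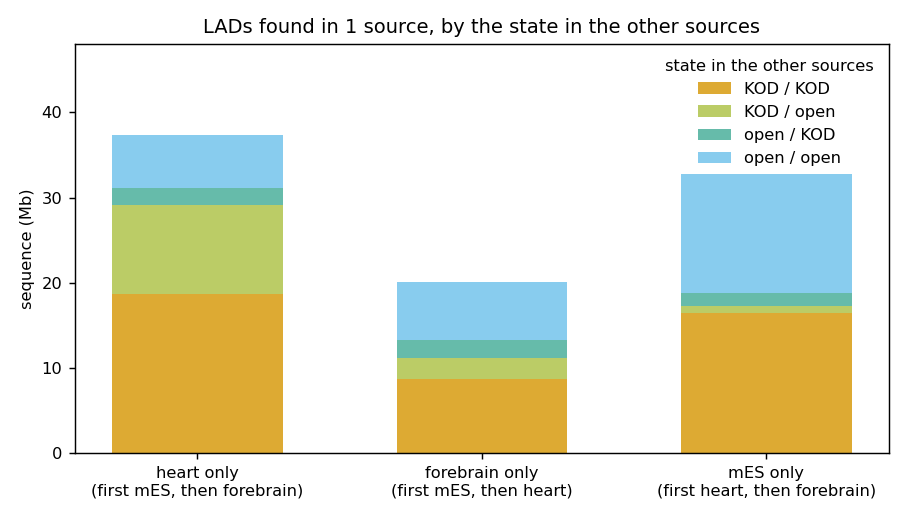
Sequence (Mb, bars from 0) that was LAD in 1 source and in the KOD or open list of both others, divided by its state in those others, named in the order given under each bar. The heart bar reaches 37.29 Mb, of which 10.43 Mb were KOD in mES cells but open in forebrain.

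The same rule with the sources exchanged gave 2005 bins (20.05 Mb) in 536 regions for forebrain and 3272 bins (32.72 Mb) in 495 regions for mES cells. As a share of each source's own LAD bins this was 3.87% in heart, 1.90% in forebrain and 3.13% in mES cells. Of the bins that were in a list of all 3 sources, 1.91% were LAD in heart only. This order rests on leaving out bins that were in no list of another source. With such bins counted as not LAD, the numbers were 5583 for heart, 6963 for forebrain and 7256 for mES cells, so heart then had the fewest. With 20 kb taken off both ends of every domain they were 1392, 626 and 1836. KOD in both others was the most frequent state in each set, at 50.1% for heart, 43.5% for forebrain and 50.3% for mES cells. The forebrain set was KOD over 55.7% in mES cells and 54.0% in heart. The mES set was KOD over 52.8% in heart and 55.2% in forebrain. A KOD majority is thus not particular to the heart set. Bins open in both others made up 16.4% of the heart set, 33.9% of the forebrain set and 42.4% of the mES set. KOD in mES cells with open in the other tissue made up 28.0% of the heart set and 12.2% of the forebrain set. Each source has 1 merged list per state, so these differences could not be tested.

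Most regions were short, and a small number of long ones held much of the sequence. The median length was 20 kb, with quartiles of 10 and 50 kb, and 257 regions (33.5%) were a single bin. Regions of at least 50 kb numbered 232 (30.2%). The 100 regions of at least 100 kb held 1855 bins, 49.7% of the set, and the longest 10 held 491 bins (4.91 Mb, 13.2%).

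Regions stood apart from other LADs more often than they extended one. For 288 regions (37.5%, exact Clopper-Pearson 95% interval 34.1 to 41.0 over regions, which share chromosomes and are no replicates) the heart LAD domain around them also held bins that were LAD in mES cells or forebrain. The other 480 regions (62.5%) lay in heart domains with no such bin and held 25.36 Mb, 68.0% of the set. For 372 regions (48.4%) the region was the whole heart domain. The 434 heart domains of the separate kind had a median length of 30 kb, against 220 kb for the 171 domains of the attached kind and 90 kb over all 3522 heart LADs. This difference is in part built into the split. A longer domain has more bins that can be LAD elsewhere, and a domain of a single bin cannot be of the attached kind. The distance from a region to the nearest bin that was LAD in mES cells or forebrain had a median of 140 kb. It was at most 50 kb for 299 regions (38.9%) and at most 500 kb for 528 (68.8%). The greatest distance was 10160 kb, for chr13:50370001-50470000.

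The bins just outside the regions show what lay at their ends. By the rule a region also ends where heart stays LAD and mES cells or forebrain are LAD or in no list. At the 1536 region ends the neighbouring bin was in no heart list at 617 (40.2%), LAD in heart at 533 (34.7%), KOD at 272 (17.7%) and open at 114 (7.42%). In mES cells the same neighbours were KOD at 56.8% of ends, open at 28.7%, in no list at 8.40% and LAD at 6.12%. In forebrain they were open at 40.4%, KOD at 34.8%, in no list at 20.0% and LAD at 4.75%. LADs of the other sources stayed sparse farther out. At 500 kb from a region end 15.7% of positions were LAD in mES cells and 13.3% in forebrain, against 43.6% and 44.0% over the whole map. In heart 35.4% of positions at 100 kb and 30.0% at 500 kb were LAD, against 40.1% over the map, and 33.5% and 47.4% were open. The regions thus lay in surroundings with few LADs in mES cells and forebrain. This is in part built into the rule, since members are LAD in neither source and domains span neighbouring bins. Positions outside a region could also fall in another member region. Flanks of other bins that were LAD in neither source were not computed, so the map shares are no matched background. In heart the surroundings changed with distance. Open was below its map share of 29.8% close to the regions, at 14.4% of positions 20 kb away and 28.6% at 70 kb, and above it from 80 kb (30.8%). LAD in heart was at 43.2% at 20 kb, above its map share, and at 38.4% at 70 kb.

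**Figure D2:**
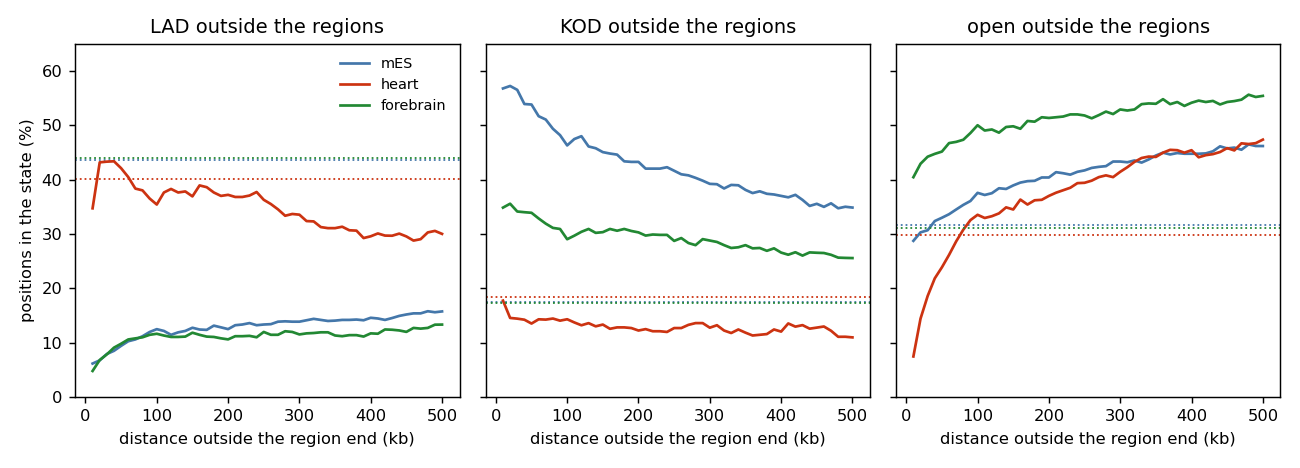
Share of positions (%) that were LAD, KOD or open at each distance (kb) outside the ends of the 768 regions, by source, with dotted lines at the share over the whole map. LAD in mES cells and forebrain remains under 16% as far as 500 kb, while open in heart climbs from 7.43% at 10 kb from the regions to 47.4%.

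The set was unevenly spread over the chromosomes. Its share of a chromosome's heart LAD bins was lowest on chromosome 10 (1.09%), had a median of 3.33% and was highest on chromosome 7 (12.6%, 617 bins, 6.17 Mb). Chromosome 5 followed with 7.71% (433 bins) and chromosome 13 with 7.17% (293 bins). Chromosomes 5 and 7 together held 28.2% of the member bins and 10.9% of all heart LAD bins. The range over the 19 chromosomes was 0% to 4.63% for the forebrain set and 0.229% to 14.9% for the mES set, so an uneven spread was seen in each.

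**Figure D3:**
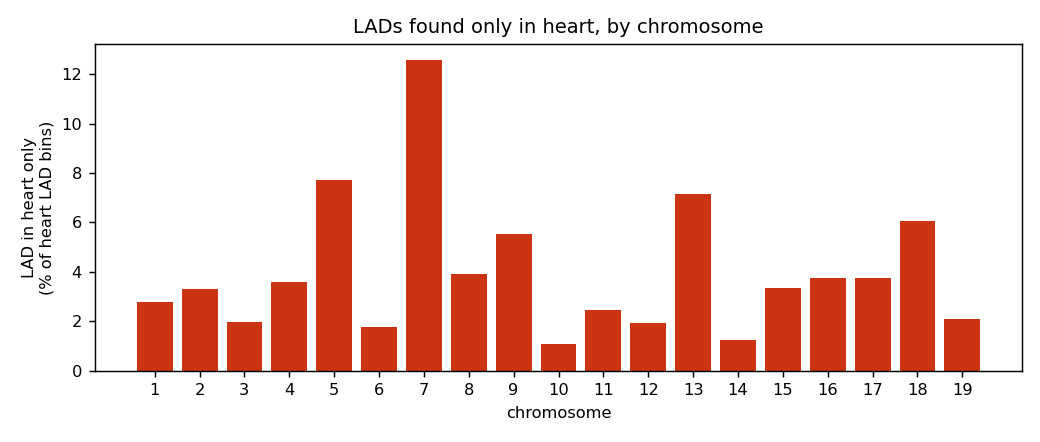
LADs found only in heart as a share (%) of the heart LAD bins of each chromosome, with bars from 0. Chromosome 7 reaches 12.6% and the median over the 19 chromosomes is 3.33%.

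Of the 10 longest regions, 6 overlap no protein-coding gene. The share of other stretches of this length without such a gene was not computed, so this count is not a trait of the regions. The longest, chr7:137900001-138790000 (890 kb), was a whole heart LAD 1420 kb from the nearest LAD of mES cells or forebrain. It was KOD in mES cells throughout and KOD over 89.9% in forebrain. It holds 1 protein-coding gene, Tcerg1l. The next, chr5:127670001-128420000 (750 kb), holds nearly all of Tmem132d, a gene for a single-pass membrane protein, and a part of Glt1d1, a glycosyltransferase gene. It was KOD over 73.3% in mES cells and 90.7% in forebrain. The seventh, chr5:125570001-125920000 (350 kb), holds most of Tmem132b and the gene Gm4868, and belongs to a heart LAD of 1030 kb that also has bins LAD elsewhere. The sixth, chr2:179140001-179590000 (450 kb), covers 32.3% of Cdh4, the gene of R-cadherin, and 4930591A17Rik, and it was open over 75.6% in forebrain.

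The other 6 of the longest 10 overlap no protein-coding gene in the table used. Long non-coding RNA genes overlap 9 of the 10. With 12408 such genes on these chromosomes, many stretches of this length would overlap one. The share over other stretches was not computed, so this count is not a trait of the regions. The nearest genes were looked up after the values were seen. The third region, chr13:71360001-71890000 (530 kb), ends 68.2 kb before Irx1, an Iroquois homeobox gene, which was open in heart over its whole body. The ninth, chr1:42320001-42630000 (310 kb), ends 65.8 kb before Pou3f3, a POU homeobox gene of the nervous system and kidney, also open in heart. The fourth, chr4:142520001-143040000 (520 kb), ends 67.4 kb before Prdm2, a gene for a PR-domain zinc finger protein, open in heart as well. The fifth, chr4:152650001-153110000 (460 kb), lies 86.8 kb from Nphp4 and 263 kb from Ajap1, and 4860 kb from the nearest LAD of another source. In heart Nphp4 was open over 84.8% of its body. Ajap1 was LAD there over 6.13% and in no list over the rest. The eighth, chr7:36130001-36470000 (340 kb), lies 156 kb from Gm36722 and 327 kb from Zfp507. In heart Gm36722 was open over 81.2% of its body and Zfp507 over all of it. The tenth, chr18:81640001-81950000 (310 kb), lies 442 kb from Galr1, the gene of a galanin receptor, which was LAD in heart over its whole body. No test was made of whether such neighbours are frequent around regions of this length.

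Protein-coding genes were sparse in the regions, though less so than in LADs of all 3 sources. By gene midpoints there were 4.75 genes per Mb (exact Poisson 95% interval 4.07 to 5.50, 177 genes), against 2.74 (2.63 to 2.86) in LADs of all 3 sources, 6.41 in KODs of all 3, 19.6 in bins open in all 3 and 8.55 over the map. The intervals cover counting error only, and neighbouring genes are not independent. Forebrain-only LADs had 4.39 genes per Mb and mES-only LADs 6.54. Within the set the density followed the state elsewhere. It was 2.78 genes per Mb (2.08 to 3.65) where both others were KOD, 5.66 where mES cells were KOD and forebrain open, 6.90 for the reverse and 8.48 (6.34 to 11.1) where both were open. Bins listed as KOD or open in heart had 6.57 genes per Mb where mES cells and forebrain were both KOD and 18.98 where both were open. In either class, the bins that were LAD in heart held fewer genes per Mb than those listed as KOD or open there. Bins in no heart list were left out of this comparison. Of the 768 regions 401 (52.2%) overlap no protein-coding gene, and so do 44 of the 100 that reach 100 kb. Most regions are short, and many short stretches would miss a gene. The share over other stretches of the same lengths was not computed, so these counts are not a trait of the set.

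**Figure D4:**
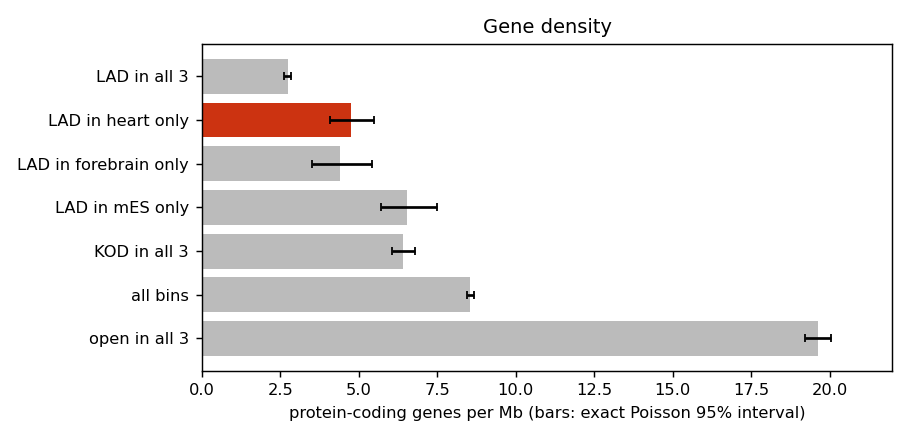
Protein-coding genes per Mb, counted by gene midpoint, for bins in each class of state, with bars from 0 and exact Poisson 95% intervals. LADs found only in heart, in red, have 4.75 genes per Mb, between the 2.74 of LADs of all 3 sources and the 6.41 of KODs of all 3.

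A total of 156 protein-coding genes had at least 50% of their body in member bins, 0.755% of the 20661 on these chromosomes, and 88 of them lay wholly inside. A further 181 overlapped a region to a smaller extent. The same count was 68 genes (0.329%) for forebrain-only LADs and 195 (0.944%) for mES-only LADs. By their most frequent states, 54 of the 156 were KOD in mES cells but open in forebrain, 49 were KOD in both, 42 were open in both and 11 were open in mES cells and KOD in forebrain. Chromosome 7 held 48 of them (30.8%), chromosome 5 held 17 and chromosome 9 held 16. Their median length was 14.7 kb, against 17.5 kb for all protein-coding genes.

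Few genes from lists of cell types and other gene classes lay in the set. Of 591 entries in 15 lists of named genes, 2 had at least 50% of the body inside. This was 0.338%, against 0.755% of all protein-coding genes. The count is too small to read a difference from that share, and none was tested. The 2 genes were Myom2, 1 of 49 genes of cardiac contraction and calcium handling, and Ctnnd2, 1 of 96 neuronal, synaptic and axon guidance genes. The other 13 lists had none. These covered cardiac transcription factors and signals (40 genes), endothelium and endocardium (34), blood (27), pluripotency (33), forebrain transcription factors (50), voltage-gated channels (39), neural crest, mesenchyme and skeleton (46), skeletal muscle (24), liver and gut (35), germline (31), imprinted genes (31), H3K9 methylation and the lamina (25) and housekeeping genes (31). With 0.755% of all genes inside, such lists would hold few members each whatever their kind, so a count of 0 in one of them says little about it. The lists also do not hold every gene of a kind. Sln, a muscle gene described below, lay inside the regions but was in none of these lists. None of 28 marker genes of heart muscle, endothelium, blood, forebrain, neurons and pluripotent cells touched a region. Of all 20661 protein-coding genes 337 did, so a count of 0 among 28 says little about these markers. In heart, 21 of the 28 were open, 5 were KOD and none was LAD. The 8 heart muscle markers were open (6) or KOD (2) there.

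Myom2 encodes myomesin 2, a protein of the sarcomere's M band. The gene (chr8:15057653-15133420) was KOD in mES cells and open in forebrain over its whole body. In heart 57.3% of it was LAD and 29.5% open, so the gene straddles the edge of a region of 120 kb, which was itself a whole heart LAD. With 20 kb taken off domain ends its share inside fell to 30.9%, below the limit for counting the gene. Sln, the gene of sarcolipin, a small regulator of the calcium pump of muscle, lay wholly in another region (chr9:53850251-53853849), KOD in mES cells and open in forebrain. Beside it, 60.3% of the transporter gene Slc35f2 was inside the same region, and Slc35f2 was open in both other sources. With trimmed ends or without short domains neither gene counted as inside.

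Several long genes, some of them known from neurons, lay largely inside the set. Dpp6 (chr5:26817357-27727500, 910 kb), an auxiliary subunit gene of neuronal potassium channels, was the longest gene inside. Of its body 80.2% was LAD in heart only and 93.7% was LAD in heart. In mES cells 72.5% of it was KOD and 26.1% open, and in forebrain 79.9% was open and 6.59% KOD. With trimmed ends 39.6% of Dpp6 stayed inside, too little to count the gene, and 52.7% did without short domains. Ctnnd2 (chr15:30172534-31029344, 857 kb) encodes delta-catenin, a neuronal adhesion protein. It was LAD over 94.2% in heart, open over 95.7% in forebrain, and KOD over 61.8% and open over 29.2% in mES cells. Tmem132d (chr5:127783491-128433077, 650 kb) had 98.0% of its body inside and differed from the first 2 genes in being KOD throughout in forebrain. In mES cells it was KOD over 78.0% and open over the rest.

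The other 5 of the 8 longest genes were Fam189a1 (400 kb, 79.9% inside), Tmem178b (384 kb, 92.2%), Mtus2 (359 kb, 67.7%), Prkcb (345 kb, 62.1%) and Tmem132b (260 kb, 85.6%). Fam189a1 was open over 93.4% in forebrain, with 55.0% KOD and 45.0% open in mES cells. Tmem178b was KOD in mES cells over its whole body and open over 79.2% in forebrain. Prkcb, the gene of protein kinase C beta, was KOD over 70.8% in mES cells and open over 57.9% in forebrain. Mtus2, a gene for a microtubule-associated protein, was KOD over 57.4% in mES cells and 56.5% in forebrain. Tmem132b was KOD over 62.5% and 66.3% in these sources. With trimmed ends the share inside was 32.5% for Fam189a1, 2.79% for Mtus2 and 26.1% for Prkcb, and without short domains it was 47.4% for Fam189a1 and 0% for Mtus2, so these calls did not hold there. Ctnnd2, Tmem132d, Tmem178b and Tmem132b kept at least 50% under both. In forebrain, open covered the larger part of Dpp6, Ctnnd2, Fam189a1, Tmem178b and Prkcb, and KOD that of Tmem132d, Mtus2 and Tmem132b. A further 9 neuronal list genes overlapped the set over less than 50% of the body, namely Rbfox1, Grin2b, Slit3, Ephb1, Opcml, Ntm, Dlgap1, Tenm2 and Tenm4. So did 4 channel genes, Cacna1b, Cacna1e, Kcnd3 and Kcnh1. A long gene has more bins in which to meet a region, and the part of gene length in these counts was not tested.

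**Figure D5:**
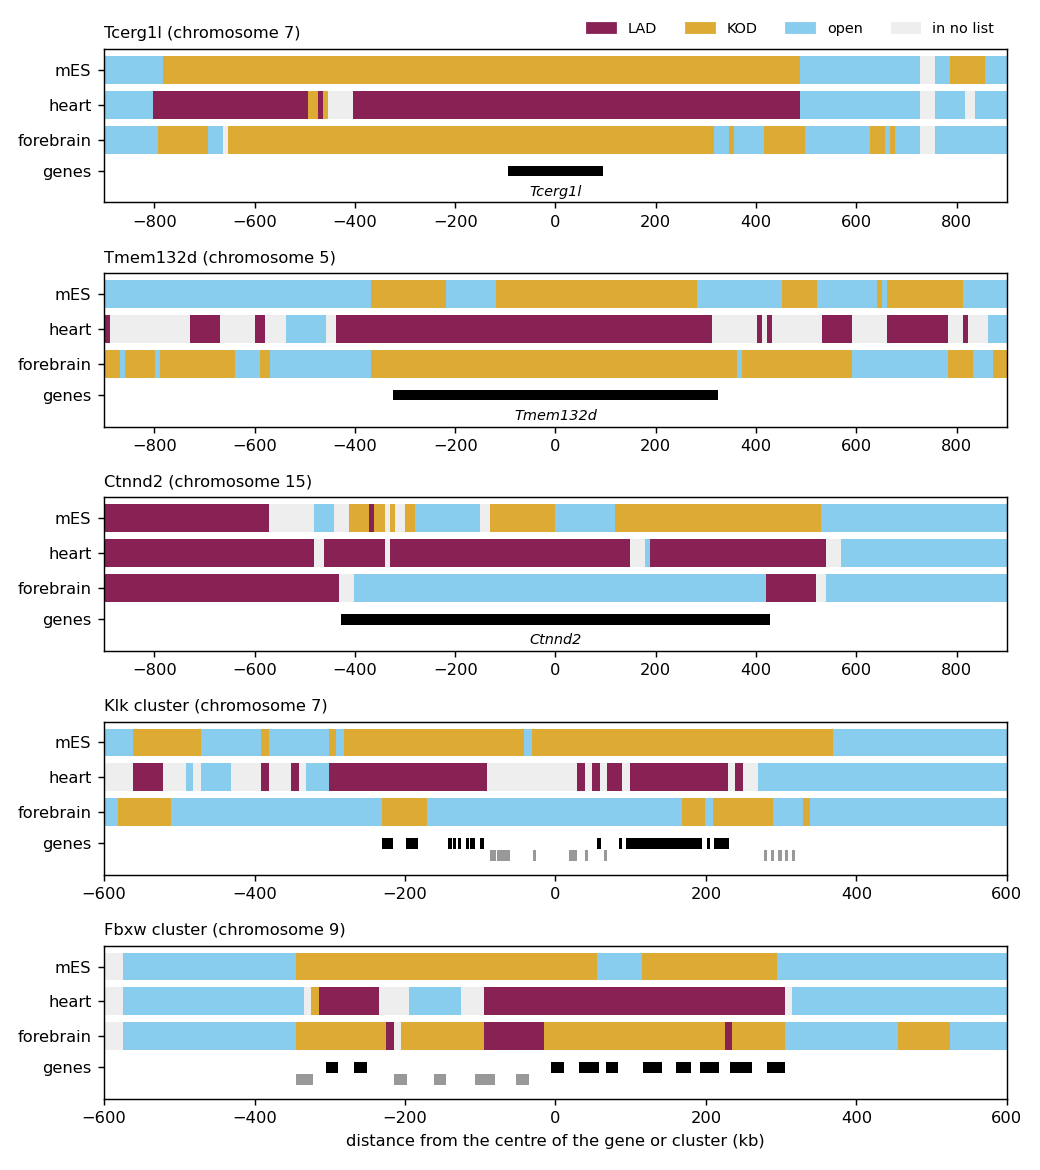
States of 10 kb bins in mES cells, heart and forebrain around 3 long genes and 2 gene clusters, by distance (kb) from the centre of the gene or cluster. Black bars are genes with at least 50% of the body in LADs found only in heart and grey bars are other genes of the family. Heart LADs cover Tcerg1l and nearly all of Tmem132d, both mostly KOD elsewhere, and Ctnnd2, mostly open in forebrain, and they break off inside both clusters.

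Several families of tandem gene copies contributed many of the 156 genes. The families were picked out after their counts were seen. Their members are close copies, where short reads are hard to place, and the labels do not say how such reads were handled, so the edges of domains within them are uncertain.

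The kallikreins, a family of secreted serine proteases, gave 15 of 27 genes, all on chromosome 7 between 43680880 and 44141610. Klk14, Klk13, Klk12, Klk11, Klk10, Klk9, Klk8 and Klk7 lay wholly inside chr7:43610001-43820000, a heart LAD of 210 kb that is 1190 kb from the nearest LAD of the other sources. All kallikrein genes of this cluster were KOD in mES cells. In forebrain Klk14, Klk13 and Klk1b16 were KOD, and the other members inside were wholly or mostly open. The next genes, Klk6, Klk5, Klk4 and Klk1b8, were in no heart list. A second, interrupted stretch began at Klk1b1 and ended at Klk1b16, and Klk1b24, Klk1b3, Klk1b4, Klk1b5 and Klk1 beyond it were open in heart. The heart label thus changed along the cluster from LAD to none, to LAD again and to open, while every kallikrein gene there was KOD in mES cells. With 20 kb taken off domain ends 5 of the 15 genes stayed inside, and with domains under 100 kb left out 9 did.

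The F-box and WD repeat genes of chromosome 9 gave 10 of 15 genes, and these 10 lie between 109179227 and 109790660. Fbxw genes encode F-box proteins, which bind substrates of ubiquitin ligases. Fbxw13 and Fbxw20 lay in a heart LAD of 80 kb, and Fbxw19, Fbxw23, Fbxw15, Fbxw24, Fbxw25, Fbxw18, Fbxw26 and Fbxw27 in one of 400 kb that also holds bins LAD elsewhere. All 10 were KOD in forebrain over most of the body. In mES cells Fbxw15 was open, Fbxw27 was KOD over 56.8%, and the other 8 were KOD over most or all of the body. Of the genes between these 2 groups, Fbxw16 lay in the same heart LAD of 400 kb but was LAD in forebrain too. Fbxw28 was open in heart and KOD in both other sources. One more Fbxw gene, Fbxw17, lies on another chromosome and makes 11 of 24 in all. Of these 11, 5 stayed inside with trimmed ends and 6 without short domains.

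The pregnancy-specific glycoproteins, secreted proteins of the placenta, gave 4 of 13 genes on chromosome 7. Psg20, Psg22, Psg19 and Psg17 lay in chr7:18660001-18830000, the longest region that was open throughout in both other sources. It is the end of a heart LAD of 420 kb. The same heart LAD holds 6 more Psg genes. Of these, Psg26, Psg25 and Psg27 were LAD in mES cells too, Psg23 was LAD there over 64.0%, and Psg28 and Psg21 were in no mES list. In forebrain all 10 genes were open. With trimmed ends 3 of the 4 stayed inside, and all 4 did without short domains.

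Olfactory receptors, the sensory receptors of the nose, gave 15 of 1104 genes (1.36%), of which Olfr1342, Olfr1341, Olfr1340, Olfr1339, Olfr1338 and Olfr1337 lay side by side on chromosome 4 in a heart LAD of 110 kb. These 6 were KOD in both other sources, and their neighbours Olfr1335, Olfr1333, Olfr1331 and Olfr1330 were KOD in all 3. Olfr1535 and Olfr1364 on chromosome 13 were KOD in both others, and Olfr161 on chromosome 16 was KOD in mES cells and open in forebrain. With trimmed ends Olfr1535, Olfr1364 and Olfr161 were lost, and without short domains the first 2 were. None of 352 vomeronasal receptor genes was a member.

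Other gene clusters were from the serpin, Cyp2 and carboxylesterase families. Serpin A and B genes, inhibitors of proteases, gave 5 of 51 (9.80%), all of them Serpina genes on chromosome 12. Serpina6, the gene of corticosteroid-binding globulin, and Serpina1f were KOD in mES cells but open in forebrain, and Serpina3k was KOD in both. With trimmed ends 2 of the 5 stayed inside, and none did when domains under 100 kb were left out. Cyp2, Cyp3 and Cyp4 genes, oxidases of drugs, steroids and fatty acids, gave 5 of 76 (6.58%), all Cyp2 genes on chromosome 7. Cyp2g1 and Cyp2a5 were open in both other sources. Cyp2b10 was open in mES cells and split between 42.6% KOD and 57.4% open in forebrain. Of the 5 Cyp2 genes 1 stayed inside with trimmed ends and 3 without short domains. Carboxylesterase 1 genes, whose products hydrolyse esters and drugs, gave 4 of 8 on chromosome 8. Ces1a and Ces1b were wholly inside, Ces1d over 63.0% and Ces1e over 66.1%. Their neighbours Ces1f and Ces1g were LAD in mES cells and heart, and all 8 genes of the family were KOD in forebrain. Under either of these alternatives 2 of the 4 stayed inside.

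Counts in other families were small and are to be read beside the 0.755% of all protein-coding genes. Of 388 Zfp genes 2 were inside (0.515%), Zfp819 over 74.3% and Zfp658 over 55.9% of the body, both near the kallikreins and both lost with trimmed ends or without short domains. Of 376 solute carrier genes 2 were inside (0.532%), Slc34a2, a phosphate transporter, and Slc35f2, and both were lost without short domains. Adamts16, a metalloprotease gene, was the only one of 53 ADAM and ADAMTS genes (1.89%), with 91.2% inside, KOD in mES cells and over 72.1% KOD in forebrain, and with trimmed ends 45.8% of it stayed inside. Il2, the gene of interleukin 2, was the only one of 122 immune signal genes (0.820%). It lay in a region of a single bin, KOD in mES cells and open in forebrain, and was lost with trimmed ends or without short domains. Clustered protocadherins had no member, although 15 of 57 touched a region. The regions held 8 of 1136 microRNA genes (0.704%). Hox genes, Wnt, Fgf and Bmp ligands, T-box and Sox factors, keratins, taste receptors, beta defensins, replication-dependent histones and ribosomal protein genes had none.

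Genes in regions that were mostly open in both other sources were named by region length, up to 10 genes lying wholly inside. Beside the Psg, Cyp2 and Sln genes given above they were Gpr12 (chr5:146582150-146586465), an orphan G protein-coupled receptor gene, and Crlf2 (chr5:109554709-109559128), the receptor gene of the cytokine TSLP. Both were open over their whole body in mES cells and in forebrain and LAD over their whole body in heart. No base of either stayed inside with trimmed ends or without domains under 100 kb.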

How the data were processed

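The domain lists are positions that the authors deposited as chromosome, start and end. Starts fall on multiples of 10 kb and no score is given, so the unit is a position, not a count or signal. The submitters' processing notes name mm10, Bowtie2 2.5.0, cutadapt 4.2, deepTools, Picard and Trim Galore. The caller of the domains, its thresholds and the use of IgG are not given in the sources used here, and signal tracks were not analysed here. Each list merges the replicates of a source, so depth and replicate error are unknown and no test between sources was made.

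Lists were painted in 10 kb bins on chromosomes 1 to 19, each taken between its outermost listed bins, using Python 3.11.15 with pandas 2.3.3, numpy 2.4.6, scipy 1.17.1 and matplotlib 3.10.9. No bin carried 2 states of a source. The painting was tested on simulated domains. Genes and start windows came from RefSeq GRCm38.p6, matched by symbol and gene ID. A gene counts as inside with at least 50% of its body in member bins. No genome was used, so base composition of regions was not computed.

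The regions, gene lists and alternatives were chosen with earlier results of these data known. Genes are named if they are members of a symbol list inside the regions, up to 4 genes of each of the 10 longest regions, up to 3 examples of a family, the 8 longest genes inside, and up to 10 genes in regions mostly open elsewhere. Promoter stretches came from the named genes. Other names were chosen after their values were seen. Expression and chromosome X were not analysed here.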

Additional observations from a re-analysis of the deposited data

How the results depend on the processing

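Edges and short domains set the size of the set. Against 3729 bins, 768 regions and 156 genes as deposited, taking 20 kb off both ends of every domain left 1392 bins, 239 regions and 35 genes, and leaving out domains under 100 kb left 1890 bins, 207 regions and 71 genes. Counting bins in no list as not LAD gave 5583 bins, 1184 regions and 238 genes. There were 232 regions of at least 50 kb, and 88 genes lay wholly inside. The share of regions attached to a LAD of another source was 34.1% for regions of at least 50 kb and 27.6% with trimmed ends, against 37.5%. Gene density was 3.45 genes per Mb with trimmed ends, against 4.75.

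The order of the sources did not hold throughout. The ratio of heart-only to forebrain-only bins went from 1.86 to 0.802 when unlisted bins counted as not LAD, and that of heart-only to mES-only bins from 1.14 to 0.769 with unlisted bins and 0.758 with trimmed ends. Leaving out 1 chromosome at a time gave 3112 (without chromosome 7) to 3702 bins and, as a choice made after seeing the data, 108 (without chromosome 7) to 155 genes and 35.9% to 38.5% attached regions. Of 85 named and family genes 29 stayed inside with trimmed ends and 48 without short domains, a check also chosen after seeing the data.

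No paired analysis was possible because each list merges the replicates of a source. For the same reason leaving out a replicate was not run. The files give no depth, which sets an unknown limit on every absence from a list.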

Other observations

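The members lay towards the far end of the chromosomes, the end with the highest coordinates, a measure chosen after seeing the data. The final 20% of the length of the chromosomes held 36.3% of the member bins (1353), against 15.1% of all heart LAD bins, 20.0% of all bins and 28.7% of the bins that were KOD in both mES cells and forebrain. The value was 27.6% for LADs found only in forebrain and 19.2% for those found only in mES cells. The share was above that of heart LADs on 11 of 19 chromosomes. Without chromosomes 5 and 7 it was 33.0% against 15.5%, with 1 chromosome left out at a time it ranged from 33.5% (without chromosome 2) to 39.3% (without chromosome 13), and with trimmed ends it was 44.9%. What moves with this position was not tested.

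Among genes that make no protein, 209 of 12408 long non-coding RNA genes (1.68%) and 100 of 8884 pseudogenes (1.13%) had at least 50% of the body in the regions. So did 9 of 1286 small nucleolar RNA genes, 1 of 391 tRNA genes and 8 of 1136 microRNA genes (0.704%). The protein-coding share was 0.755%. By sequence, the members were 1.91% of the bins listed in all 3 sources and 3729 of the 240077 bins of the map. The share of long non-coding RNA genes was thus near the share of sequence, and no difference was tested.

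Mature sequences were found in RefSeq (GRCm38.p6) for 5 of the 8 microRNA genes. They are the small RNAs that the regions encode, given 5′ to 3′ with the seed, bases 2 to 8, in capitals. The 6 seeds differ from one another, and they were not compared with those of other microRNAs.
mmu-miR-6353: uAGCAGCAcguauuuauccuauu
mmu-miR-12200-5p: aAACAAACcagaggcucacacu
mmu-miR-12200-3p: uGUGAAUCuccggcgcguuu
mmu-miR-6394: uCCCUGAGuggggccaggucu
mmu-miR-6401: uUACACUCcaguggugucgggu
mmu-miR-6393: cUGCCCACgaagcacacugagu
The microRNA gene of the miR-12200 arms lies in the region of Tmem132b and was KOD in mES cells and in forebrain, as were those of miR-6401 and miR-6393. That of miR-6394 was open in both, and that of miR-6353 was open in mES cells but KOD in forebrain. Mir6378, Mir6356 and Mir5127 are the other microRNA genes inside.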
